A study of Mus musculus with 6 samples.

Results

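Coagulation and fibrinolysis genes were examined in bone marrow mesenchymal progenitors of the mouse, a stromal population that nurtures blood stem cells and can form skeletal tissue. The set was named by gene symbol and holds 10 genes: the tissue factor gene F3, the factor genes F5, F8, F10 and F13a1, the anticoagulant genes Tfpi, Thbd and Procr, and the plasminogen activator genes Plat and Plau. It was selected on the measured counts of F5, which are lower in Lama4-/- cells, so that difference is given below as a description and carries no test. Of the 10, 9 had a row in the deposited table of 25491 genes. F10 had none and is not analysed here. All 9 passed the filter on low counts, Procr through the 3 wild type libraries and 1 Lama4-/- library. For F8 and Plau too, nearly all Lama4-/- counts came from 1 library, 59 of 63 and 60 of 61.

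The C57BL/6J mice were 14 weeks old and had received sublethal irradiation of 7 Gy 6 weeks earlier. Their cells were sorted as CD45, TER119, CD31, CD44 and SCA1 negative and CD51 positive. RNA was read in 3 libraries from Lama4-/- mice, without the alpha 4 chain of the basement membrane protein laminin, and in 3 libraries from wild type mice. All 6 therefore came from irradiated marrow, with no unirradiated group. Nothing in the labels ties a library to a single mouse, and the p-values therefore rest on a spread that may be technical.

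Blood coagulation starts when tissue factor on a cell surface binds factor VII. A cascade of proteases then makes thrombin, with factor V and factor VIII as the cofactors that speed its main steps, and thrombin turns fibrinogen into fibrin, which factor XIII cross-links. Thrombomodulin, the protein C receptor and TFPI hold the cascade back, and plasminogen activators start the breakdown of fibrin and of pericellular matrix. Most circulating factors come from the liver, factor VIII from endothelium, and factor V and factor XIII A chain are also held in platelets, while stromal cells are known for tissue factor and for plasminogen activators.

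Library totals ran from 12979711 to 15663957 counts in the Lama4-/- group and from 6263830 to 13409177 in the wild type group. Lama4, the deleted gene, had 0 counts in each Lama4-/- library and 33.8 to 45.4 CPM in wild type (CPM, counts relative to the TMM-adjusted library total). It was the 1 gene with an edgeR adjusted p under 0.05 (0.0497). All 11 mesenchymal markers of a list were detected, with the highest CPM in Col1a1 at 19640 to 69810 CPM in Lama4-/- and 31850 to 45030 CPM in wild type, and in Col1a2 at 32390 to 74310 CPM in Lama4-/- and 42730 to 76830 CPM in wild type. Of the sort gate genes, Ptprc (CD45) lay at 0 to 2.18 CPM in Lama4-/- and 0 to 4.09 CPM in wild type, and Itgav (CD51) at 44.5 to 73.1 CPM in Lama4-/- and 95.9 to 139 CPM in wild type. Cd44, on which the cells were sorted as negative, was present at 53.2 to 82.0 CPM in Lama4-/- and 70.5 to 152 CPM in wild type. Ly6a (SCA1) was at 8.64 to 11.8 CPM in Lama4-/- and 8.91 to 16.3 CPM in wild type. Pecam1 (CD31) was at 0.060 to 0.752 CPM in Lama4-/- and 1.39 to 2.06 CPM in wild type, with groups apart and a log2 fold change of -2.40 (SE 1.24, edgeR adjusted p = 0.473).

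Per kilobase of the longest annotated transcript, the mean levels of the 9 genes ran from the 0.885th percentile of the tested genes for F8 to the 97.97th for F3. F3 stood at the top in both groups, at 161 ± 36.0 CPM per kb in Lama4-/- and 165 ± 67.8 CPM per kb in wild type (SD, n = 3 each), with percentiles taken over 14458 tested genes with a known length. F13a1 came next, at 35.8 ± 1.34 CPM per kb in Lama4-/- and 34.0 ± 9.53 CPM per kb in wild type, apart in every library from F3 above it. In Lama4-/- the order went on with Thbd at 10.9, Plat at 5.68, F5 at 5.26 and Tfpi at 3.79 CPM per kb, each overlapping its neighbour over the libraries. In wild type the gene after F13a1 was F5 at 18.6 CPM per kb, followed by Thbd at 15.1 and Plat at 12.2, which overlapped in the same way. Procr, Plau and F8 were low. Their means were 0.514, 0.652 and 0.131 CPM per kb in Lama4-/-, against 2.99, 0.701 and 0.255 CPM per kb in wild type, where Procr overlapped Tfpi at 2.72 CPM per kb.

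**Figure D1:**
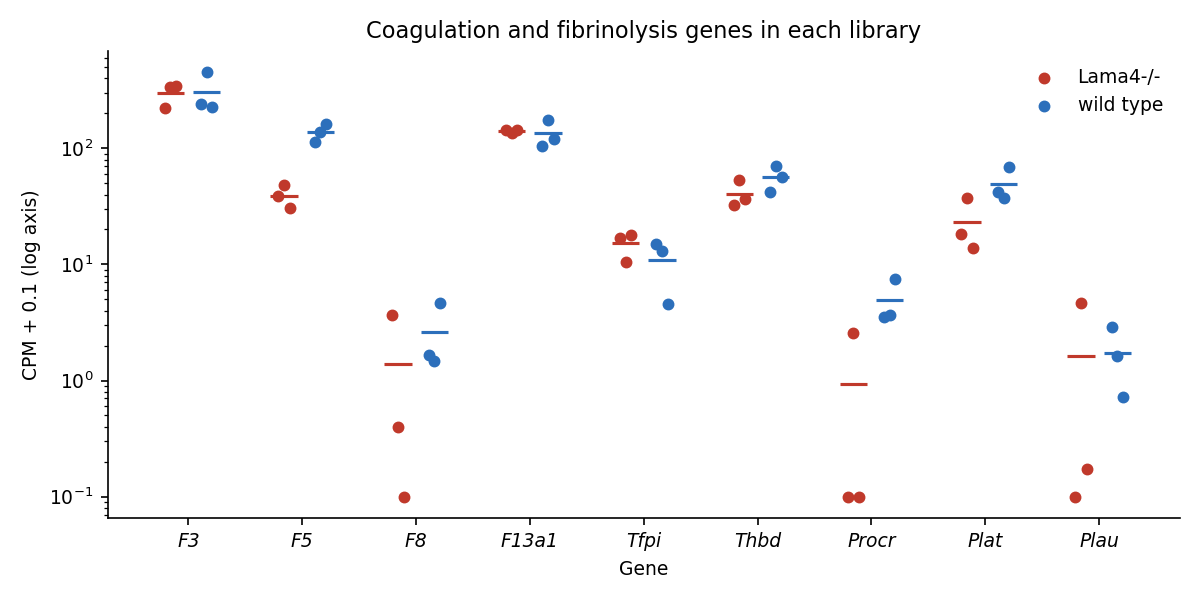
CPM + 0.1 on a log axis for the 9 genes in each library, Lama4-/- left and wild type right, with points for libraries and bars for the mean of 3. Points at the bottom are libraries with 0 counts. F5, Procr and Plat have every Lama4-/- library below every wild type library.

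F5 encodes factor V, the cofactor with which factor Xa turns prothrombin into thrombin. The gene lies on chromosome 1 from 164151838 to 164220277 on the plus strand (GRCm38), with 1 annotated transcript of 7430 bases. Its level was 38.9, 48.0 and 30.4 CPM in the Lama4-/- libraries, against 114, 139 and 161 CPM in the wild type libraries. The groups did not overlap, and the highest Lama4-/- library held less than the lowest wild type library. The means were 39.1 ± 8.82 CPM in Lama4-/- and 138 ± 23.5 CPM in wild type (SD, n = 3 each), a log2 fold change of -1.82 (SE 0.25) in the edgeR fit. Behind them stood 1704 counts in Lama4-/- (95% exact Poisson interval 1624 to 1787) and 4431 in wild type (4301 to 4563), intervals that cover counting error only. An antisense gene, Gm16548, shares exon bases with F5 and the kit does not mark strand. Gm16548 itself was assigned at most 1 count in any Lama4-/- library and at most 18 in any wild type library. How reads on the shared bases were assigned is not given, and their part in the F5 values was not tested. In bulk samples, fewer cells with a transcript and less of it per cell cannot be told apart.

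Factor V is also made by megakaryocytes, so their markers were read beside it. Of 10 megakaryocyte and platelet markers 9 had a row, and their summed level was 21.1, 5.64 and 8.64 CPM in Lama4-/- and 21.99, 11.6 and 21.4 CPM in wild type, groups that overlapped. The pair with the highest mean CPM were Ppbp, at 2.71 to 4.68 CPM in Lama4-/- and 4.97 to 15.8 CPM in wild type, and Itga2b, at 1.58 to 2.46 CPM in Lama4-/- and 0.617 to 8.97 CPM in wild type. Pf4 was at 0 in 1 Lama4-/- library and reached 6.66 CPM in another. The 3 tested markers all had a log2 fold change below 0, with a median of -1.20. In 1 of them every Lama4-/- library was below every wild type library, beside 12% of all tested genes. In edgeR 1 had an unadjusted p under 0.05, beside 12.8% of all tested genes, and 0 passed the adjustment in edgeR or DESeq2. The part of these markers in the F5 difference was not tested.

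Markers of the sorted stromal cells themselves also stood lower beside F5. Of the 11 mesenchymal markers, 9 had a log2 fold change below 0, with a median of -0.93 over the list, or -0.13 with transcript length accounted for as below, beside -0.04 and 0.02 over all tested genes. In edgeR 0 of the 11 passed and 5 had an unadjusted p under 0.05, beside 0.00691% and 12.8% of all tested genes. DESeq2 called 4, beside 2.85% of the genes it tested. In 6 of them, Lepr, Pdgfra, Pdgfrb, Kitl, Runx2 and Grem1, every Lama4-/- library was below every wild type library, and in 0 every one was above; over all tested genes these shares were 12% and 10.3%. Lepr, the leptin receptor that marks perivascular stroma, was at 148, 167 and 68.8 CPM in Lama4-/-, against 437, 443 and 203 CPM in wild type. These counts were taken without the length step, and the transcripts of the 6 are long, from 4148 to 6834 bases. With length accounted for, their log2 fold changes ran from -1.26 for Grem1 to -0.13 for Pdgfra. Foxc1 and Col1a1 went the other way, at 0.16 and 0.175 as counted and 0.79 and 0.85 with length accounted for. The 6 were named after their values were seen, and the part of this shift in the F5 difference was not tested.

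Fold changes in this series followed transcript length, with a Spearman's rho of -0.46 across genes, which are not independent replicates. In the decile of genes with the longest transcripts (median 8073.5 bases) the median log2 fold change was -0.92, and F5 at -1.82 lay below the lower quartile of that decile, -1.45. With the trend taken out of every library, F5 stood at 49.2, 56.1 and 41.6 length-adjusted CPM in Lama4-/-, against 77.4, 110 and 104 in wild type. The groups remained apart, and the log2 fold change was -0.99 (SE 0.22). After this step 6.99% of 14458 genes had every Lama4-/- library below every wild type library, and 9.03% had every one above. F5 was picked for its lower counts, so its place against the quartile and these shares is a description and no test.

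**Figure D2:**
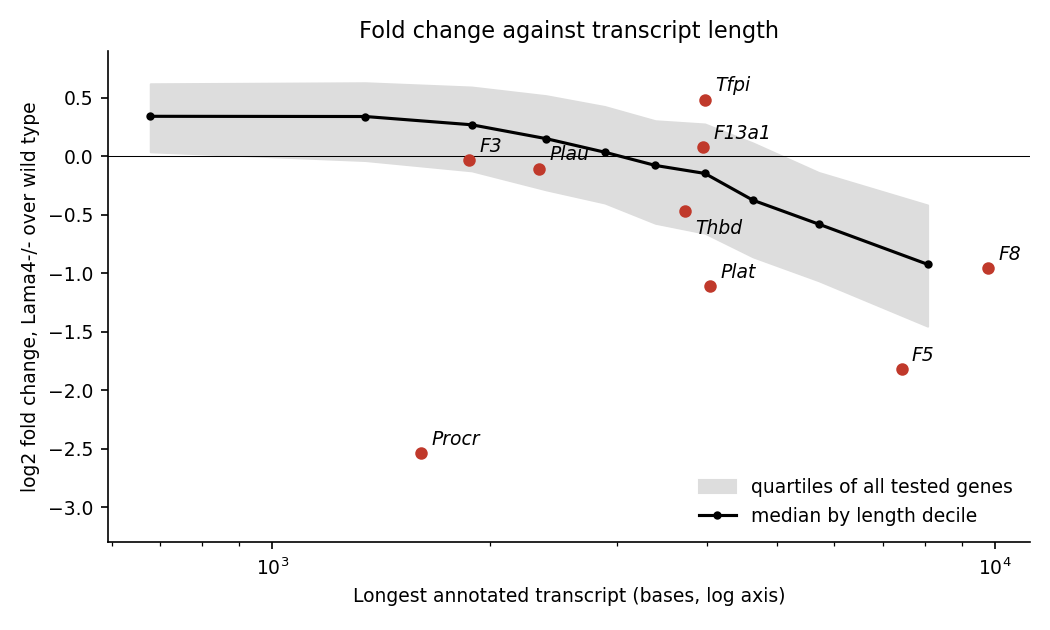
Log2 fold change (Lama4-/- over wild type) against the longest annotated transcript in bases, on a log axis, with the median of all tested genes by length decile as a line, their quartiles as a band and the 9 genes as red points. F5 at -1.82, picked for its lower level, lies below the band among long transcripts. Procr lies below it among short ones, at -2.54 with an SE of 1.85 and all 33 Lama4-/- counts from 1 library.

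The promoters of F5 and Procr, the genes of the set whose groups were apart with and without the length trend, are shown with that of F3, the gene with the highest level per kilobase, from RefSeq (GRCm38.p6, 250 bases before to 50 after the start site, all on the plus strand). Capitals mark matches on either strand to 4 short motifs. These were TATAAA (the TATA box), then CCAAT (the CCAAT box), then GGGCGG (the GC box) and last CACGTG (the E-box), and no match overlapped another.
F5, chr1:164151585-164151884: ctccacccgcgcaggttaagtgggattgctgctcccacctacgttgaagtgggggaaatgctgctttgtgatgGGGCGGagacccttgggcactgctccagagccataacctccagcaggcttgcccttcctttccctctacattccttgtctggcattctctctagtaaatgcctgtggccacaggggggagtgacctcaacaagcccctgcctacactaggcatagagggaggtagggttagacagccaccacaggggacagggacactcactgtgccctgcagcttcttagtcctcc
Procr, chr2:155750967-155751266: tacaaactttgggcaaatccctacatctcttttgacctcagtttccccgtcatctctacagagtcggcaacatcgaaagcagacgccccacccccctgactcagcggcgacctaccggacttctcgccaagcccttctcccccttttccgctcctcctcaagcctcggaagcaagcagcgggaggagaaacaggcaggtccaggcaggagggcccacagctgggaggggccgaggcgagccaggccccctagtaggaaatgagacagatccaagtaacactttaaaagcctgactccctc
F3, chr3:121723287-121723586: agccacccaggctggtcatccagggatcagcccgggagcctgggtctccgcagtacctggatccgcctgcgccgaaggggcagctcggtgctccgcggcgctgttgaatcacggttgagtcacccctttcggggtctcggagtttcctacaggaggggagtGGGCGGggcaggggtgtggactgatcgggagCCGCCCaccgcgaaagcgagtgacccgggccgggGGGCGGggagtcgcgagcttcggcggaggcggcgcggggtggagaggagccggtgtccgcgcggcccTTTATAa
The F5 window held GGGCGG once, beginning 177 bases before the start site, and none of the other motifs. The Procr window held none of the 4. The F3 window held GGGCGG 3 times, beginning 89, 58 and 24 bases before the start site, and TATAAA on the opposite strand 43 bases after it. Of 32851 RefSeq promoter windows of this length, 35.7% held the GC box motif, 13.6% the TATA box motif, 37.4% the CCAAT box motif and 7.15% the E-box motif. The windows of F5, Procr and F3 had a GC content of 57.7%, 58.3% and 70.3%. Of the 10 genes, 7 matched the RefSeq table.

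F8 encodes factor VIII, the relative of factor V that serves factor IXa as cofactor and in mice comes mainly from endothelial cells. It was near the limit of detection, at 3.54, 0.301 and 0 CPM in Lama4-/- and 1.57, 1.37 and 4.55 CPM in wild type. One Lama4-/- library held 59 of the group's 63 counts, and the library with 0 counts allows up to 0.218 CPM (3 counts). The groups overlapped, with a log2 fold change of -0.96 (SE 1.62), or 0.15 (SE 1.59) with the length trend removed on its transcript of 9784 bases. Per kilobase the level of F8 was also far from that of F5, at 0.131 ± 0.201 against 5.26 ± 1.19 CPM per kb in Lama4-/- and at 0.255 ± 0.182 against 18.6 ± 3.16 CPM per kb in wild type (SD, n = 3 each).

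The proteins of both genes leave the cell by a shared route, the cargo receptor of LMAN1 and MCFD2 that carries factors V and VIII out of the endoplasmic reticulum in humans. Lman1 was at 217, 220 and 231 CPM in Lama4-/- and 278, 251 and 307 CPM in wild type, apart between the groups, with a log2 fold change of -0.32 (SE 0.16, edgeR adjusted p = 0.465) and of 0.06 with the length trend removed. Mcfd2 was at 180, 241 and 263 CPM in Lama4-/- and 186, 206 and 168 CPM in wild type, and the groups overlapped (log2 fold change 0.29, SE 0.20). Neither passed the adjustment.

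F3 encodes tissue factor, the membrane receptor that starts coagulation. Its 4 annotated transcripts lie on chromosome 3 from 121723537 to 121735048 on the plus strand. It was at 224, 335 and 345 CPM in Lama4-/-, against 242, 454 and 228 CPM in wild type. One wild type library was the highest of all 6 and the other 5 lay between 224 and 345 CPM. The means were 301 ± 67.4 CPM in Lama4-/- and 308 ± 127 CPM in wild type (SD, n = 3 each), with a log2 fold change of -0.03 (SE 0.32, edgeR adjusted p = 0.978). Its sign changed with the scaling: it was 0.06 with upper-quartile scaling and -0.27 with the length trend removed.

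F13a1, the A chain of the transglutaminase factor XIII, which cross-links fibrin and also fibronectin, had close values in the 3 Lama4-/- libraries. It lies on chromosome 13 from 36867178 to 37050244 on the minus strand, and the overlapping Gm30489 had 1 count in all 6 libraries together. F13a1 was at 144, 135 and 145 CPM in Lama4-/- and 105, 177 and 121 CPM in wild type. The groups overlapped, with a log2 fold change of 0.07 (SE 0.23, edgeR adjusted p = 0.929), or 0.31 (SE 0.20) with the length trend removed. F13a1 is a known transcript of macrophages, whose 10 markers summed to 21.4, 51.8 and 35.7 CPM in Lama4-/- and 15.71, 11.99 and 30.5 CPM in wild type. The highest mean CPM among these were those of Cd68, at 3.96 to 11.7 CPM in Lama4-/- and 4.62 to 15.2 CPM in wild type, and C1qb, at 3.60 to 12.4 CPM in Lama4-/- and 1.78 to 3.44 CPM in wild type, groups apart in the direction of higher Lama4-/-. Adgre1, Mrc1 and Fcgr1 were too low to test. Adgre1 was lower in Lama4-/-, at a mean of 0.0702 CPM against 2.92 CPM in wild type, where wild type replicate 3 held 106 counts. Mrc1 and Fcgr1 had counts in Lama4-/- only. Of the 7 tested, 6 had a log2 fold change above 0 and 1 below, with a median of 1.84, or 1.76 with the length trend removed. Every Lama4-/- library was above every wild type library in 3 of them and below in 0, beside 10.3% and 12% of all tested genes. The 3 were C1qa, C1qb and C1qc, related genes that are not independent observations. C1qa and C1qc had few wild type counts, 14, 4 and 4 for C1qa and 0, 8 and 30 for C1qc. They passed the filter mostly through the Lama4-/- libraries, where they were higher. In edgeR and DESeq2 0 of the 7 passed. The part of macrophage RNA in the F13a1 values was not tested.

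**Figure D3:**
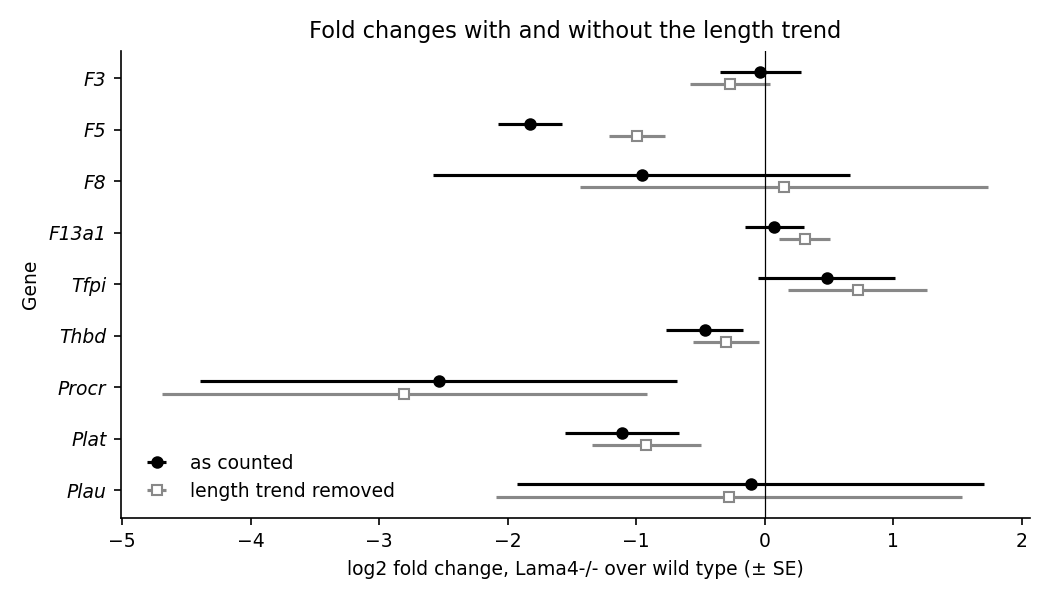
Log2 fold change (Lama4-/- over wild type) with its SE for the 9 genes, as counted (filled) and with the length trend removed (open). F5 moved from -1.82 to -0.99, Plat from -1.11 to -0.92 and Procr from -2.54 to -2.80, while F8, Procr and Plau have SEs above 1.5.

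Among the genes that hold coagulation back, Thbd and Tfpi overlapped between the groups and Procr did not, and 0 of the 3 passed the test. Tfpi, a Kunitz-type inhibitor of tissue factor with factor VIIa and of factor Xa, was at 16.9, 10.5 and 17.8 CPM in Lama4-/- and 14.9, 13.01 and 4.48 CPM in wild type. One wild type library was lowest of the 6, and the log2 fold change was 0.48 (SE 0.53, edgeR adjusted p = 0.769). Without wild type replicate 3 it was 0.12. Thbd, thrombomodulin, which turns thrombin towards protein C, was at 32.1, 52.9 and 36.8 CPM in Lama4-/- and 42.0, 70.0 and 56.5 CPM in wild type. These groups overlapped through 1 library of each, with a log2 fold change of -0.47 (SE 0.30, edgeR adjusted p = 0.576).

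Procr, which presents protein C to thrombin and thrombomodulin and marks several stem and progenitor cells, was at 0, 2.48 and 0 CPM in Lama4-/- and 3.44, 3.60 and 7.41 CPM in wild type. All 33 Lama4-/- counts came from 1 library, against 163 counts spread over the 3 wild type libraries as 46, 21 and 96. The 2 libraries with 0 counts allow up to 0.180 and 0.218 CPM. The groups did not overlap, but the log2 fold change of -2.54 had an SE of 1.85 and did not pass (edgeR adjusted p = 0.634). The difference was -1.94 without Lama4-/- replicate 1, and without Lama4-/- replicate 2 the remaining Lama4-/- libraries are all at 0. Its transcript is short, 1608 bases, and the difference was as large with the length trend removed, at -2.80 (SE 1.88).

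Procr and Thbd are known above all from endothelium, so the markers of that cell type were read beside them. Of 10 endothelial markers 9 had a row, and they summed to 1.32, 4.06 and 6.25 CPM in Lama4-/-, against 10.02, 8.39 and 15.1 CPM in wild type, with no overlap of the sums. Of the 4 tested, 3 had a log2 fold change below 0, 0 passed in edgeR or DESeq2 and 0 had an unadjusted p under 0.05. Pecam1 alone of the 4 was apart, lower in Lama4-/-, as were 12% of all tested genes. Cdh5, Tek and Tie1 had 0 counts in every Lama4-/- library. In wild type Cdh5 was at 0.342 to 2.24 CPM, Tek at 0 to 1.645 CPM and Tie1 at 0 to 1.775 CPM. Cldn5 went the other way, with 0 counts in every wild type library and 0 to 0.581 CPM in Lama4-/-. All of these were too low to test and were named after their values were seen. The markers with the highest mean CPM were Plvap, at 1.20 to 2.98 CPM in Lama4-/- and 0.823 to 3.63 CPM in wild type, and Egfl7, at 0 to 1.60 CPM in Lama4-/- and 1.54 to 3.96 CPM in wild type. The part of endothelial RNA in the Procr, Thbd and F8 values was not tested.

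**Figure D4:**
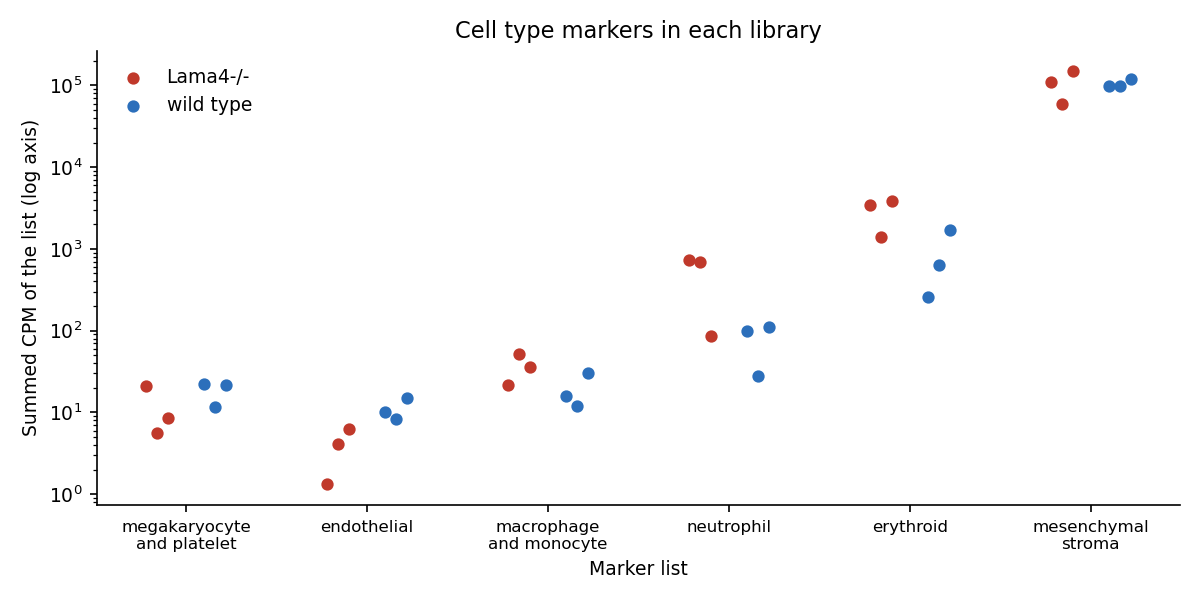
Summed CPM of 6 marker lists on a log axis in each library, Lama4-/- left and wild type right. The endothelial sums, 1.32 to 6.25 CPM in Lama4-/- and 8.39 to 15.1 CPM in wild type, do not overlap; the neutrophil, erythroid, macrophage, platelet and mesenchymal sums overlap, the mesenchymal sum being mostly Col1a1 and Col1a2.

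Plat encodes tissue plasminogen activator, the protease that turns plasminogen into plasmin on fibrin, and lies on chromosome 8 from 22757727 to 22782844 on the plus strand. It was at 18.2, 36.9 and 13.7 CPM in Lama4-/-, against 41.9, 37.2 and 69.4 CPM in wild type. The groups were apart by 1 narrow gap, 36.9 in the highest Lama4-/- library and 37.2 CPM in the lowest wild type library. The means were 22.95 ± 12.3 CPM in Lama4-/- and 49.5 ± 17.4 CPM in wild type (SD, n = 3 each), with a log2 fold change of -1.11 (SE 0.44) that did not pass (edgeR adjusted p = 0.361). It was -0.78 without wild type replicate 3. With the length trend removed it was -0.92 (SE 0.42), and the groups overlapped. Plau, the urokinase gene, was low, at 0, 4.51 and 0.0726 CPM in Lama4-/- and 2.77, 1.54 and 0.617 CPM in wild type. One Lama4-/- library held 60 of the group's 61 Plau counts, and the log2 fold change of -0.11 had an SE of 1.82.

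Over the set, F5, Procr and Plat had every Lama4-/- library below every wild type library, and no gene of the set had the reverse. Among all 14465 tested genes, 12% were apart in this lower direction and 10.3% in the higher. F5 was chosen for its lower level, which leaves 2 of 8 genes, Procr and Plat, beside that background. Procr passed the filter on low counts mostly through the wild type libraries, the group where it is higher, so its count here is no support. None of these 8 (0 of 8) reached an adjusted p under 0.05 by edgeR's quasi-likelihood test, in which 0.00691% of all tested genes did, and 0 passed with DESeq2, in which 2.85% of 25358 genes did. At an unadjusted p under 0.05 in edgeR, where 12.8% of the tested genes lay, the 8 held Plat alone. The authors' deposited table lists adjusted p-values from 0.136 for Plat to 0.979 for F3 among Plat, Thbd, F3, F13a1 and Tfpi, and NA for Procr, F8 and Plau.

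The other genes of the pathway were read from 5 lists with 54 genes. Of these, 14 had no row, 11 were too low to test and 29 were tested. In edgeR 0 of the 29 passed in either direction. At an unadjusted p under 0.05, where 12.8% of all tested genes lay, there were 3, of which Lrp1 and Mrc2 were lower in Lama4-/- and Vkorc1 was higher. Mrc2 was named after its values were seen. DESeq2, which called 2.85% of all genes it tested, called 1, Lrp1. The median log2 fold change of the 29 was -0.08, beside -0.04 over all tested genes, and with the length trend removed 0.03 beside 0.02. Every Lama4-/- library was below every wild type library in 6 of the 29, and above in 1, beside 12% and 10.3% of all tested genes.

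In the plasminogen system 6 genes were tested, 4 with a log2 fold change below 0 and 2 above, and 0 passed. Mrc2, the collagen receptor that associates with the urokinase receptor, was at 178, 158 and 121 CPM in Lama4-/-, against 218, 241 and 285 CPM in wild type. The groups did not overlap. The log2 fold change was -0.70 (SE 0.21, edgeR adjusted p = 0.267). Removal of the length trend left -0.08.

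Among the cell-surface partners of this system, Plaur, Anxa2 and S100a10 overlapped between the groups and Lrp1 was apart. Plaur, the urokinase receptor, was at 120, 222 and 241 CPM in Lama4-/- and 189, 228 and 275 CPM in wild type. Anxa2 and S100a10, which together form a surface receptor for plasminogen and tissue plasminogen activator, were at 611 to 826 CPM and 254 to 264 CPM in Lama4-/-, against 731 to 854 CPM and 176 to 328 CPM in wild type, with log2 fold changes of -0.21 (SE 0.19) and -0.03 (SE 0.25). Lrp1, the endocytic receptor that clears many secreted proteins, was at 306, 414 and 278 CPM in Lama4-/-, against 667, 585 and 1168 CPM in wild type. The Lrp1 groups were apart, at a log2 fold change of -1.28 (SE 0.31, edgeR adjusted p = 0.237; DESeq2 adjusted p = 0.00656). With the length trend removed it was 0.05.

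**Figure D5:**
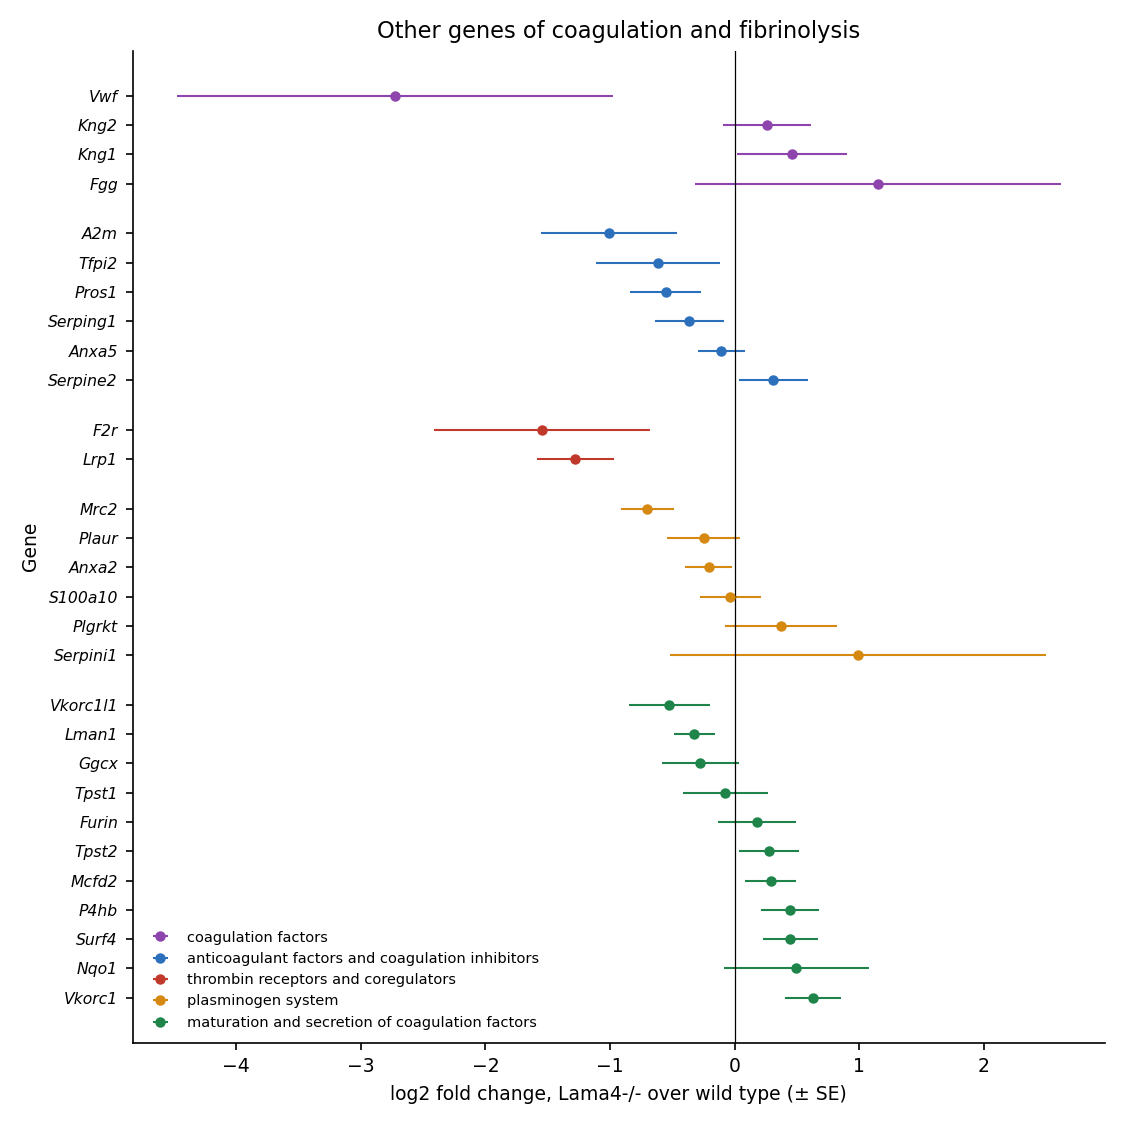
Log2 fold change (Lama4-/- over wild type) with its SE for the 29 tested genes of 5 pathway lists, coloured by list. The values run from Vwf at -2.73 (SE 1.75) to Fgg at 1.15 (SE 1.47). F2r at -1.55 and Lrp1 at -1.28 also lie left of 0, while Vkorc1 at 0.63 lies right. None passed the edgeR adjustment.

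Of the thrombin receptors, F2r (PAR1) alone was tested. It was at 8.58, 6.17 and 0.508 CPM in Lama4-/-, against 12.4, 14.0 and 18.3 CPM in wild type, apart between the groups, with a log2 fold change of -1.55 (SE 0.87, edgeR adjusted p = 0.515). F2rl1, F2rl2 and F2rl3 were too low to test. In the list of anticoagulant factors and inhibitors, the log2 fold change was below 0 for 5 of 6 tested genes (median -0.46) and 0 passed. Pros1, protein S, the cofactor of activated protein C, was at 79.6, 85.5 and 51.1 CPM in Lama4-/- and 79.9, 136 and 101 CPM in wild type. Serpine2, the thrombin inhibitor protease nexin 1, had the highest mean CPM of that list, at 1558, 1514 and 1391 CPM in Lama4-/- and 1054, 1706 and 838 CPM in wild type. Anxa5, which binds the phosphatidylserine surface on which factors assemble, was at 587 to 810 CPM in Lama4-/- and 704 to 809 CPM in wild type, with a log2 fold change of -0.11 (SE 0.19).

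Genes of other circulating factors were scarce or gave mixed values. Of 13, 6 had no row, and F7, F12 and Klkb1 were too low to test. The kininogen genes Kng1 and Kng2, near-identical copies whose reads may have been split, were at 89.5 to 199 CPM and 102 to 137 CPM in Lama4-/-, against 46.2 to 126 CPM and 52.9 to 144 CPM in wild type. Their groups overlapped. Vwf, the carrier of factor VIII in plasma, was at 0 to 0.827 CPM in Lama4-/- and 1.20 to 2.70 CPM in wild type, with groups apart. Its log2 fold change was -2.73 (SE 1.75, edgeR adjusted p = 0.579), and its 11 Lama4-/- counts came from 1 library. Vwf was named after its values were seen.

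Of the 11 genes for maturation and secretion, all were tested, 7 above and 4 below a log2 fold change of 0 (median 0.27, or 0.08 without the length trend). Vkorc1, which recycles vitamin K for the carboxylation of factors, was at 112, 106 and 139 CPM in Lama4-/-, against 93.6, 64.0 and 72.3 CPM in wild type. It was the 1 gene of the 29 with every Lama4-/- library above every wild type library, with a log2 fold change of 0.63 (SE 0.22, edgeR adjusted p = 0.320) and of 0.29 with the length trend removed. Ggcx, the carboxylase itself, was at 119, 119 and 128 CPM in Lama4-/- and 82.1, 196 and 164 CPM in wild type. P4hb, protein disulfide isomerase, was at 1930 to 2641 CPM in Lama4-/- and 1478 to 2150 CPM in wild type, and Surf4, another cargo receptor, at 775 to 1018 CPM in Lama4-/- and 543 to 835 CPM in wild type. They had log2 fold changes of 0.44 (SE 0.23) and 0.45 (SE 0.22), neither past the adjustment.

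The genes whose profile over the 6 libraries was most like that of F5 were sought among 10083 tested genes with a mean of at least 5 CPM, by the mean absolute distance of centred log2 CPM. They were Myo9a at a distance of 0.096, Kdm7a at 0.157, Hspg2 (perlecan) at 0.162, Cnrip1 at 0.165 and Fasn (fatty acid synthase) at 0.172. Myo9a was at 11.8, 15.3 and 7.92 CPM in Lama4-/-, against 40.5, 40.9 and 50.2 CPM in wild type. Transcripts of 4 of the 5 were longer than that of F5, from 9566 to 14187 bases, and their log2 fold changes shrank to between -0.76 and -0.49 with the length trend removed. Cnrip1, with 2153 bases, kept a log2 fold change of -1.96 there, beside -1.76 before. All 5 had log2 fold changes between -1.91 and -1.49 as counted, so their likeness includes the group difference for which F5 was picked.

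Blood cell transcripts also differed between the libraries. The 10 neutrophil markers summed to 728, 686 and 86.3 CPM in Lama4-/- and 99.2, 27.9 and 111 CPM in wild type, with S100a9 at 37.3 to 260 CPM in Lama4-/- and 5.99 to 44.4 CPM in wild type, and S100a8 at 27.7 to 155 CPM in Lama4-/- and 5.99 to 22.7 CPM in wild type. The 8 erythroid genes summed to 3446, 1384 and 3882 CPM in Lama4-/- and 260, 641 and 1688 CPM in wild type, with Hbb-bs at 647 to 1991 CPM in Lama4-/- and 122 to 777 CPM in wild type, and Hba-a1 at 225 to 631 CPM in Lama4-/- and 47.1 to 312 CPM in wild type. Globin genes are near-identical copies, so single values are uncertain. All 10 neutrophil and all 8 erythroid genes had a log2 fold change above 0, with medians of 2.88 and 1.60. With the length trend removed these medians were 2.61 and 1.21. As counted, every Lama4-/- library was above every wild type library in 4 neutrophil and 1 erythroid genes, beside 10.3% of all tested genes, and below in 0. DESeq2 called 4 and 1, beside 2.85% of the genes it tested, and in edgeR 0 passed the adjustment. The part of these transcripts in the levels of the coagulation genes was not tested.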

How the data were processed

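RNA of bone marrow mesenchymal progenitors from 3 Lama4-/- and 3 wild type libraries was amplified with SMART-Seq v4, a kit that does not mark strand, and sequenced single-end (75 bp) according to the protocols in the labels. The submitters' processing notes name STAR 2.6.1d, featureCounts, Subread and DESeq2 with GRCm38 and mm10. Settings: not given in the sources used here. In the authors' single table the names of both blocks of library columns appear to be swapped. Values under the normalized heading are 100% whole, and these deposited counts were analysed. Values under the raw heading are a deposited signal, equal to the counts times 1 constant per library, and entered no test. The deposited log2 fold change and adjusted p-value are the authors' DESeq2 Wald test per the file headers.

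In R 4.3.3, genes passing filterByExpr (14465) were TMM-scaled and tested by edgeR 4.0.16 (quasi-likelihood F test, robust), with Benjamini-Hochberg adjustment over all of them. DESeq2 1.42.0 was an alternative, as were upper-quartile scaling, DESeq2 size factors, no filter, a replicate block and each library left out. The length trend was removed per library by lowess (span 0.3) of log2 deviations on the log10 length of the longest transcript in GENCODE M21 of GRCm38, where 99.8% of identifiers were found. The procedures were tested on simulated counts. Named genes were the set, the 2 most abundant tested genes of each pathway list and of each marker list of other cell types, 10 pathway genes set by name, the sort gate and the 5 profiles nearest to F5. Some genes of the lists are not reported here. The members and lists were chosen with earlier results of these data known. Libraries of 1 genotype were further apart than counting noise allows (per-gene chi-square at least 42.6) and all were kept. Intervals and floors of 3 counts cover counting error only.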

Additional observations from a re-analysis of the deposited data

How the results depend on the processing

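Over 12 alternatives, 0 of the 8 genes other than F5 passed in any. The log2 fold change of F5 was -0.99 with the length trend removed, ran from -2.0 to -1.67 with each library left out, and moved by less than the spread between libraries elsewhere. The number of all genes past the threshold, 1 in edgeR, was 12 with no filter, 722 with DESeq2, 0 with upper-quartile scaling, with the length trend removed and with the replicate block, and 0 to 1 with each library left out. The sign turned for F8 with the length trend removed (0.15) and for F3 with upper-quartile scaling (0.063) and the replicate block (0.013). With each library left out, F3 ran from -0.20 to 0.36, F13a1 from -0.057 to 0.32, Plau from -5.22 to 0.53, F8 from -3.97 to -0.20, Procr from -8.92 to -1.94, Plat from -1.64 to -0.78, Thbd from -0.71 to -0.28 and Tfpi from 0.12 to 0.81. The ends of -8.92, -5.22 and -3.97 leave Lama4-/- libraries with at most 4 counts and are no bounds. Same-numbered libraries correlated at 0.04, 0.132 and 0.0539 in their deviations, so the number was not taken as a pairing, although each library correlated best with its own number. The replicate block gave log2 fold changes of -5.61 for Procr, -2.61 for Plau and -2.30 for F8. Nearly all of the 33, 61 and 63 Lama4-/- counts of Procr, Plau and F8 came from 1 library each; the cause of the shifts was not tested.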
